A study of Mus musculus with 8 samples.

Results

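The stellate cell and fibrillar matrix genes Lrat, Reln, Des, Acta2, Pdgfrb, Dcn, Col1a1, Col1a2 and Col3a1 were followed across 8 mouse livers. The 9 genes were taken by symbol from a written list, whose rule uses no measured value but which was drawn up with earlier results of these data known, out of 34547 genes in the deposited tables, and each of the 9 had enough reads to be among the 13678 genes tested. The first group was 4 C57BL/6J mice that received an adeno-associated virus carrying mouse Nudt7, whose product is a peroxisomal enzyme that hydrolyses coenzyme A and acyl-CoAs. The other group was 4 C57BL/6J mice that received the same kind of virus carrying GFP, a fluorescent protein. Every mouse was injected through the tail vein at 8 weeks of age with 2.5e+11 particles in 150 µl, was fasted for 24 h and had its liver collected 3 to 4 weeks after injection, at 11 to 12 weeks of age. Both groups therefore carried a viral vector and were fasted, and no uninjected or fed mice were analysed here. Neither the serotype and promoter of the vector nor the sex of the mice is given in the labels.

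Hepatic stellate cells lie between the sinusoidal endothelium and the hepatocytes. In healthy liver they store vitamin A as retinyl esters, and Lrat encodes the acyltransferase that makes these esters. On injury they can turn into myofibroblast-like cells that express smooth muscle actin, encoded by Acta2, and secrete collagens of types I and III, the fibrillar collagens of scar tissue. PDGF receptor beta, encoded by Pdgfrb, carries the main mitogenic signal of these cells.

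The libraries held 11187806 to 15487092 estimated reads in Nudt7 livers and 11466892 to 23640734 in GFP livers. Nudt7 itself was at 1301, 1599, 3569 and 1555 CPM (reads scaled to a common library size) in Nudt7 livers 1 to 4, highest in replicate 3, and averaged 2006 ± 1050 CPM in Nudt7 livers, against 72.3 ± 8.26 CPM in the GFP group (SD over 4 livers each). Nudt7 replicate 3 stood apart, at 47.4 on the first principal component against −14.9 to −2.11 for the other 7 libraries, and in it long transcripts were underrepresented. Its fitted trend with transcript length lay 0.44 log2 units below the mean of the 8 libraries for Reln, 0.40 below it for Lrat and Pdgfrb, and 0.18 above it for Dcn and Acta2. For the other members the trend was −0.39 for Col1a1, −0.32 for Col1a2, −0.11 for Col3a1 and −0.057 for Des. The length of a gene was the mean over its transcripts weighted by TPM (reads allowed for transcript length). It was 5848 bases for Reln and 2967 for Col3a1, although most of their reads lay on coding transcripts of 11699 and 5564 bases. The trend values of Reln and Col3a1 are thus those of shorter transcripts. The part of the Nudt7 level or of the length trend in the values of Nudt7 replicate 3 was not tested. Hepatocyte markers such as Alb and Ttr (16 listed) summed to 95190 to 134500 CPM in Nudt7 livers, against 114300 to 136500 CPM in GFP livers; all 16 were tested and none was at 0 in every liver. In such bulk samples, fewer cells of a type and less RNA per cell cannot be told apart.

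None of the 9 genes passed the test between Nudt7 and GFP livers. With edgeR's quasi-likelihood test and adjustment over all 13678 genes, 0 of 9 had an adjusted p under 0.05, where 0.117% of all genes did (0.0439% higher and 0.0731% lower in Nudt7 livers), and 0 of 9 had an unadjusted p under 0.05, where 8.28% did. DESeq2, in which 1.18% of genes passed, and limma-voom also called 0 of the 9. Fold changes were negative for 5 genes and positive for 4, with a median of −0.024 log2 units, against 50.2% negative and a median of −0.00089 over all genes. For each of the 9 genes the Nudt7 livers and the GFP livers overlapped, whereas 5.75% of all genes had groups that did not. Adjusted p-values of fold changes given for single genes are from the same edgeR fit. The largest fold change in size among the 9 was that of Acta2.

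**Figure D1:**
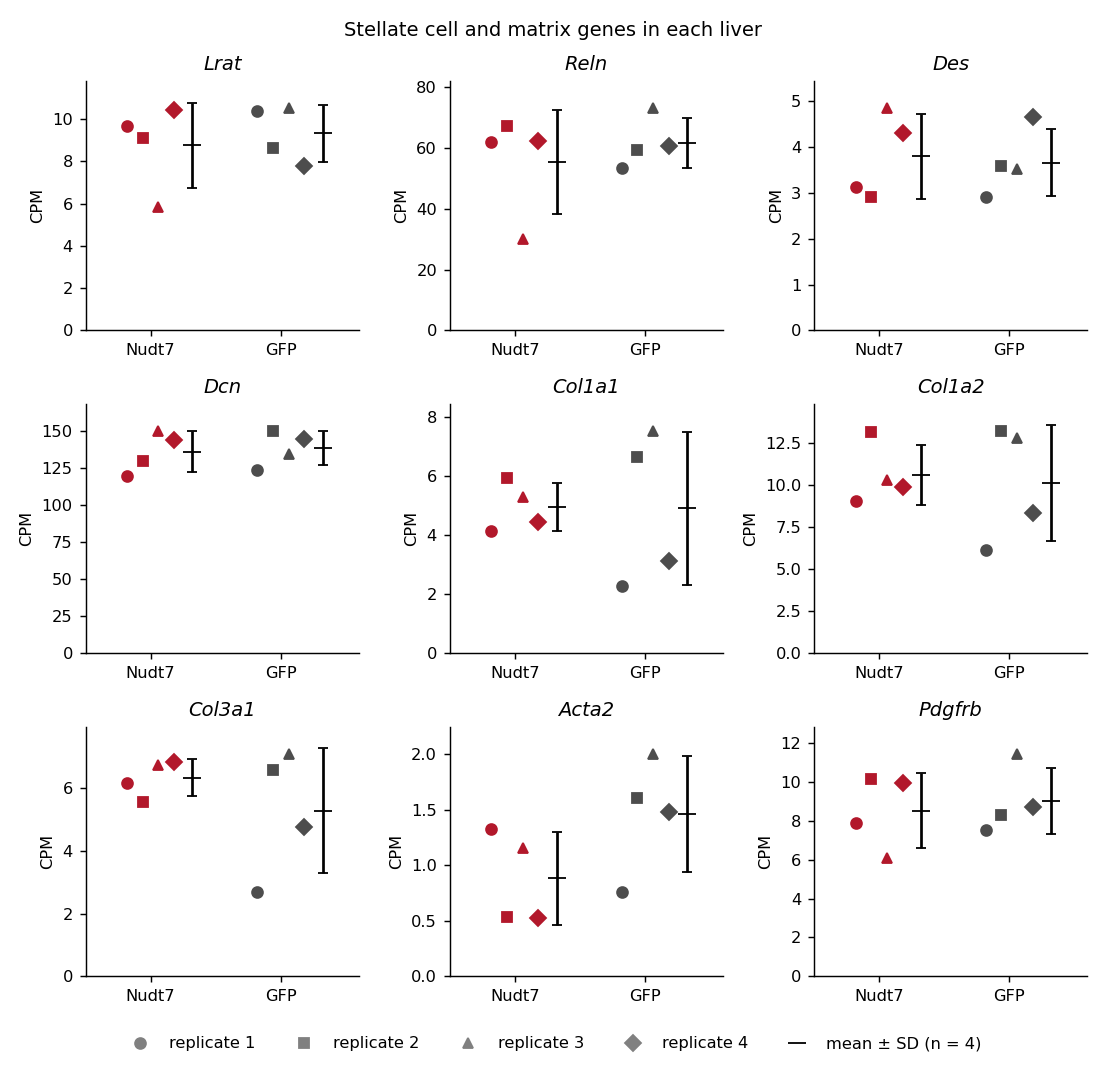
Level of each gene in CPM (vertical axes, from 0) in every liver, Nudt7 livers on the left in red and GFP livers on the right in grey, with 1 marker shape per replicate and the mean ± SD (n = 4) as a black bar. The groups overlap for all 9 genes; Reln reaches 30.1 CPM in Nudt7 replicate 3 and the collagen genes are lowest in GFP replicate 1.

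Lrat (chromosome 3, 82892579 to 82903973, minus strand, GRCm38) was at 9.68, 9.10, 5.85 and 10.4 CPM in Nudt7 livers 1 to 4 and at 10.4, 8.62, 10.5 and 7.78 CPM in GFP livers 1 to 4. The lowest of the 8 livers was Nudt7 replicate 3, and the other 3 Nudt7 livers lay within the range of the GFP livers. Its log2 fold change was −0.082 (SE 0.19, 95% interval −0.51 to 0.34, adjusted p = 0.915), and without Nudt7 replicate 3 it was 0.083. The interval thus ran from 0.704-fold to 1.27-fold.

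Reln (chromosome 5, 21884454 to 22344702, minus strand) encodes reelin, a large secreted glycoprotein that in liver marks quiescent and activated stellate cells. It was at 61.9, 67.2, 30.1 and 62.4 CPM in Nudt7 livers 1 to 4 and at 53.6, 59.2, 73.3 and 60.8 CPM in GFP livers 1 to 4. Nudt7 replicate 3 had less than any other liver, and the other 7 lay between 53.6 and 73.3 CPM. The log2 fold change was −0.15 (SE 0.22, 95% interval −0.63 to 0.32, adjusted p = 0.851) and was 0.061 without Nudt7 replicate 3. Among reelin's receptors, Vldlr, the very low density lipoprotein receptor gene, was at 3.12, 1.24, 1.48 and 3.91 CPM in Nudt7 livers and at 4.22, 4.45, 4.27 and 7.95 CPM in GFP livers. Every Nudt7 liver lay below every GFP liver, but this log2 difference, −1.09 (SE 0.36 and adjusted p = 0.439), did not pass. The receptor gene Lrp8 and the adaptor gene Dab1 had too few reads to be tested, with 0.33 to 2.34 CPM and 0.065 to 0.66 CPM in Nudt7 livers and 0.26 to 0.75 CPM and 0.15 to 0.25 CPM in GFP livers.

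Des (chromosome 1, 75360329 to 75368579, plus strand) encodes desmin, the muscle intermediate filament that rodent stellate cells also contain. It was at 3.12, 2.91, 4.86 and 4.30 CPM in Nudt7 livers 1 to 4 and at 2.91, 3.58, 3.51 and 4.65 CPM in GFP livers 1 to 4. Both groups held low and high livers, and the log2 fold change was 0.046 (SE 0.23, 95% interval −0.46 to 0.55, adjusted p = 0.967).

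Acta2 (chromosome 19, 34241090 to 34255590, minus strand) encodes smooth muscle alpha-actin and had the fewest reads of the 9 genes, 136 in the 8 libraries together. It was at 1.33, 0.530, 1.15 and 0.521 CPM in Nudt7 livers 1 to 4, from 17, 6, 14 and 8 reads, and at 0.761, 1.61, 2.01 and 1.48 CPM in GFP livers 1 to 4, from 11, 22, 24 and 34 reads. Nudt7 replicates 2 and 4 were the lowest of the 8 livers, whereas GFP replicate 1 lay below Nudt7 replicates 1 and 3. The log2 fold change was −0.72 (SE 0.398, 95% interval −1.59 to 0.15, unadjusted p = 0.0963, adjusted p = 0.664), so a decrease to 0.331-fold and an increase to 1.11-fold both lay within the interval. Its unadjusted p was under 0.05 in 3 alternatives, at 0.0380 without GFP replicate 1, 0.0491 without Nudt7 replicate 1 and 0.0490 on log2(TPM + 1), with adjusted p of 0.840, 0.621 and 0.626. Its counting error alone gave a coefficient of variation of 28.0% per liver, against 41.9% within groups.

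Acta2 and other smooth muscle genes are controlled through CArG boxes, the elements bound by serum response factor. The sequence around the Acta2 elements is shown because Acta2 had the largest fold change of the 9. Within the 250 bases before the RefSeq start of Acta2, no CArG box with a core of A and T alone was found, and 2 elements with 1 other base in the core were found, 84 and 34 bases before the start. Both lie inside the first exon of the GENCODE annotation, which starts farther upstream than RefSeq. They are printed 5′ to 3′ on the minus strand with 10 flanking bases on each side and the element in capitals, and lie at chr19:34255438-34255467 and chr19:34255388-34255417 (RefSeq, GRCm38.p6).
Acta2 element 1: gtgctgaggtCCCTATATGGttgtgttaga
Acta2 element 2: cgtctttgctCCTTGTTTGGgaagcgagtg
Of 32851 promoter windows of that length, 8.59% held an element with at most 1 other base in the core, and 1.47% held a box with a core of A and T alone. Of the 9 genes, 6 had a promoter in the RefSeq table, and Lrat and Col1a2 each held 1 element with 1 other base in the core.

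Pdgfrb (chromosome 18, 61045150 to 61085061, plus strand) was at 7.89, 10.2, 6.09 and 9.97 CPM in Nudt7 livers 1 to 4 and at 7.55, 8.33, 11.5 and 8.69 CPM in GFP livers 1 to 4. Nudt7 replicate 3 was again the lowest liver and GFP replicate 3 the highest. The log2 fold change was −0.074 (SE 0.197, 95% interval −0.51 to 0.36, adjusted p = 0.929) and was 0.069 without Nudt7 replicate 3. Pdgfb, the gene of its main ligand, averaged 1.21 ± 0.214 CPM in Nudt7 livers, against 1.35 ± 0.536 CPM in the GFP group, a log2 difference of −0.17 (SE 0.33 and adjusted p = 0.891). Pdgfra, the gene of the sister receptor, averaged 15.5 ± 3.21 and 15.5 ± 0.957 CPM in Nudt7 and GFP livers (SD, n = 4 each).

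Dcn (chromosome 10, 97479609 to 97518143, plus strand) encodes decorin, a small proteoglycan that binds collagen fibrils. It was at 120.1, 129.7, 150.4 and 144.4 CPM in Nudt7 livers 1 to 4 and at 124.1, 150.1, 134.8 and 144.7 CPM in GFP livers 1 to 4. The livers of both groups covered nearly the same range. The log2 fold change was −0.024 (SE 0.12, 95% interval −0.29 to 0.25, adjusted p = 0.968), the narrowest interval of the 9, from 0.816-fold to 1.19-fold.

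The type I collagen genes Col1a1 (chromosome 11, 94936224 to 94953042, plus strand) and Col1a2 (chromosome 6, 4504814 to 4541544, plus strand) encode the chains of the main fibrillar collagen of scar tissue, and Col3a1 (chromosome 1, 45311538 to 45349706, plus strand) encodes the type III chain that accompanies it. Col1a1 was at 4.14, 5.92, 5.27 and 4.43 CPM in Nudt7 livers 1 to 4 and at 2.28, 6.65, 7.53 and 3.13 CPM in GFP livers 1 to 4. Col1a2 was at 9.06, 13.2, 10.3 and 9.90 CPM in Nudt7 livers and at 6.16, 13.2, 12.8 and 8.35 CPM in GFP livers. Col3a1 was at 6.17, 5.56, 6.75 and 6.84 CPM in Nudt7 livers and at 2.70, 6.57, 7.11 and 4.78 CPM in GFP livers. For each of the 3 genes GFP replicate 1 was the lowest liver, GFP replicate 4 the next lowest, and the 4 Nudt7 livers lay between GFP replicate 4 and the highest GFP liver. Log2 fold changes were 0.030 for Col1a1 (SE 0.34, 95% interval −0.71 to 0.77, adjusted p = 0.986), 0.071 for Col1a2 (SE 0.24, 95% interval −0.44 to 0.59, adjusted p = 0.947) and 0.27 for Col3a1 (SE 0.26, 95% interval −0.298 to 0.84, adjusted p = 0.778). Without GFP replicate 1 those of Col1a1 and Col1a2 were −0.19 and −0.090, and that of Col3a1 was 0.068.

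**Figure D2:**
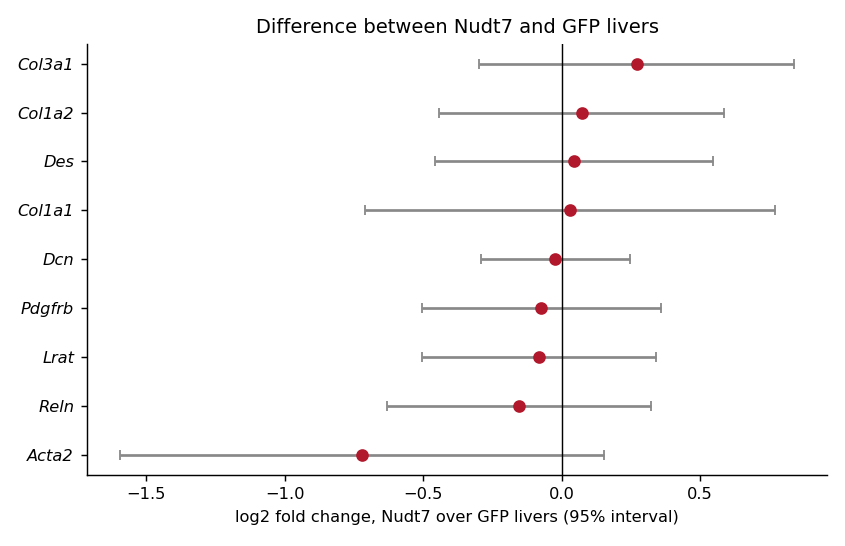
Log2 fold change of each gene in Nudt7 over GFP livers (horizontal axis), with its 95% interval from the quasi-likelihood fit on 4 livers a group. All 9 intervals include 0; Dcn has the narrowest, −0.29 to 0.25, and Acta2 the widest, −1.59 to 0.15.

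Summed over the 3 collagen genes, the level was 19.4, 24.6, 22.3 and 21.2 CPM in Nudt7 livers 1 to 4 and 11.1, 26.4, 27.4 and 16.3 CPM in GFP livers 1 to 4. The sum averaged 21.9 ± 2.21 CPM in Nudt7 livers, against 20.3 ± 7.93 CPM in the GFP group (SD, n = 4 each), so the GFP livers were more spread out, a difference in spread that was not tested. The ratio of Col1a1 to Col1a2, in TPM (a measure that allows for transcript length) of the full-length coding transcripts, was 0.437 ± 0.0345 in Nudt7 livers and 0.425 ± 0.109 in GFP livers.

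Promoter sequence of the collagen genes is shown because their levels across livers are compared next; Col1a1 had no entry in the RefSeq table. The stretches printed lie just before an annotated exon and outside every GENCODE exon of these genes. They are at chr1:45311288-45311537 for Col3a1 and chr6:4505370-4505492 for Col1a2, both on the plus strand (RefSeq, GRCm38.p6). The Col1a2 stretch lies inside the GENCODE span of its gene, which starts farther upstream, at 4504814. The motif TATAAA, the motif CCAAT, the motif GGGCGG and CArG boxes were sought on both strands; capitals mark TATAAA in Col3a1 and a CArG box with 1 other base in its core in Col1a2.
Col3a1 promoter: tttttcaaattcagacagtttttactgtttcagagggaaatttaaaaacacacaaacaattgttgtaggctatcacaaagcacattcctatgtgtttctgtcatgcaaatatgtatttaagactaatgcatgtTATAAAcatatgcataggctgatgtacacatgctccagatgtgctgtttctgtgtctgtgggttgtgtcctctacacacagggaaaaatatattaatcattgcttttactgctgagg
Col1a2 promoter: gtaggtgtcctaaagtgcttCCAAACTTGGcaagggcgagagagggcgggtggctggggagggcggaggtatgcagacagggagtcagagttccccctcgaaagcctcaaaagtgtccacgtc
Col3a1 held TATAAA once, 117 bases before its RefSeq start, and no CCAAT. Col1a2 held no TATAAA; it held a CArG-like element 228 bases and a CCAAT 109 bases before its RefSeq start, and that CCAAT lies inside an annotated exon and is not printed. GGGCGG, left in lower case, stood in Col1a2 at 205 and 188 bases before the start and was not found in Col3a1. Over all windows, 12.4% held TATAAA, 33.9% held CCAAT and 32.7% held GGGCGG.

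Across the 8 livers the collagen genes were positively correlated, and Col1a1 with Col1a2 passed the test. Col1a1 and Col1a2 had a Pearson r of 0.968 on log2(CPM + 0.5) (exact permutation p = 0.000223, adjusted over 36 pairs p = 0.00491) and a Spearman rho of 0.929 (exact permutation p = 0.00223, adjusted p = 0.0402). The r was 0.946 without GFP replicates 1 and 3, the livers farthest from the Col1a1 median. Col1a1 and Col3a1 had an r of 0.833 (exact permutation p = 0.00791, adjusted p = 0.0949) and a rho of 0.714 (exact permutation p = 0.0576, adjusted p = 0.518), with an r of 0.560 without GFP replicates 1 and 3. Col1a2 and Col3a1 had an r of 0.796 (exact permutation p = 0.0218, adjusted p = 0.157) and a rho of 0.524 (exact permutation p = 0.197, adjusted p = 0.708), with an r of 0.395 without GFP replicates 1 and 2. The r of Col3a1 with the other 2 was thus lower without those livers. Without GFP replicate 1 alone, r was 0.938 for Col1a1 with Col1a2, 0.661 for Col1a1 with Col3a1 and 0.428 for Col1a2 with Col3a1. With the group means removed the 3 values of r were 0.968, 0.855 and 0.808, and with the trend in transcript length removed they were 0.97, 0.867 and 0.842.

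**Figure D3:**
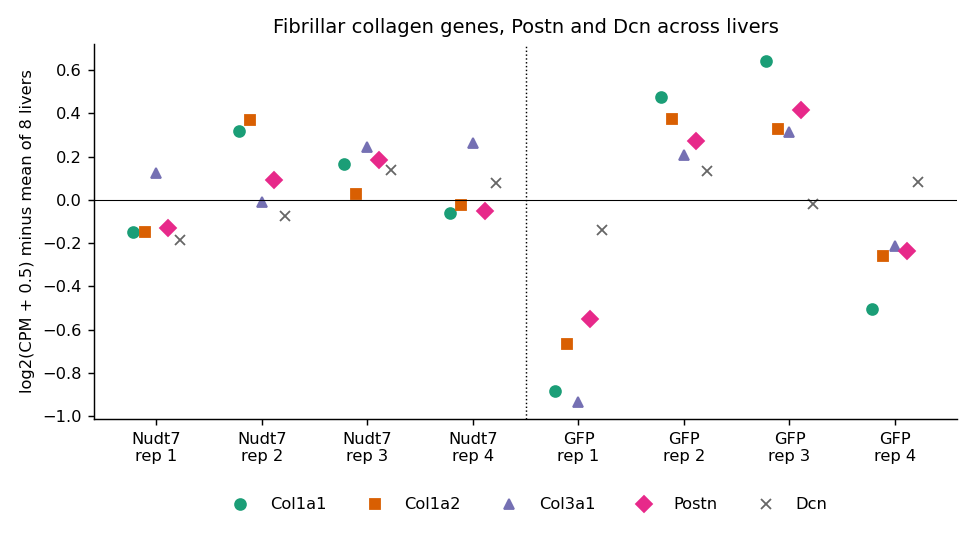
Log2(CPM + 0.5) of Col1a1, Col1a2, Col3a1, Postn and Dcn in each liver minus the gene's mean over the 8 livers (vertical axis), with the 4 Nudt7 livers left of the dotted line and the 4 GFP livers right of it. The collagen genes and Postn are lowest in GFP replicate 1, where Col3a1 is at 2.70 CPM, and Dcn varies less.

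The other pair of the 36 that passed was Reln and Pdgfrb, with an r of 0.875 (exact permutation p = 0.000273, adjusted over 36 pairs p = 0.00491) and a rho of 0.929 (exact permutation p = 0.00223, adjusted p = 0.0402). It was 0.803 without Nudt7 replicate 3 and GFP replicate 3, the livers farthest from the Reln median, and 0.899 without Nudt7 replicate 3 alone. With the trend in transcript length removed it was 0.643, and both genes have long transcripts. The removal took Reln at 5848 bases, less than its main coding transcript of 11699 bases. Lrat and Reln had an r of 0.824 (exact permutation p = 0.0465, adjusted p = 0.279) and a rho of 0.643 (exact permutation p = 0.0962, adjusted p = 0.693), which rested on Nudt7 replicate 3: without that liver r was 0.150. Des and Dcn had an r of 0.818 (exact permutation p = 0.0203, adjusted p = 0.157) and a rho of 0.857 (exact permutation p = 0.0107, adjusted p = 0.129), with an r of 0.768 without Nudt7 replicate 3 and 0.450 with the length trend removed. Lrat and Des had an r of −0.647 (exact permutation p = 0.0708, adjusted p = 0.318) and a rho of −0.524 (exact permutation p = 0.197, adjusted p = 0.708), with an r of 0.218 without Nudt7 replicate 3 and GFP replicate 4.

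**Figure D4:**
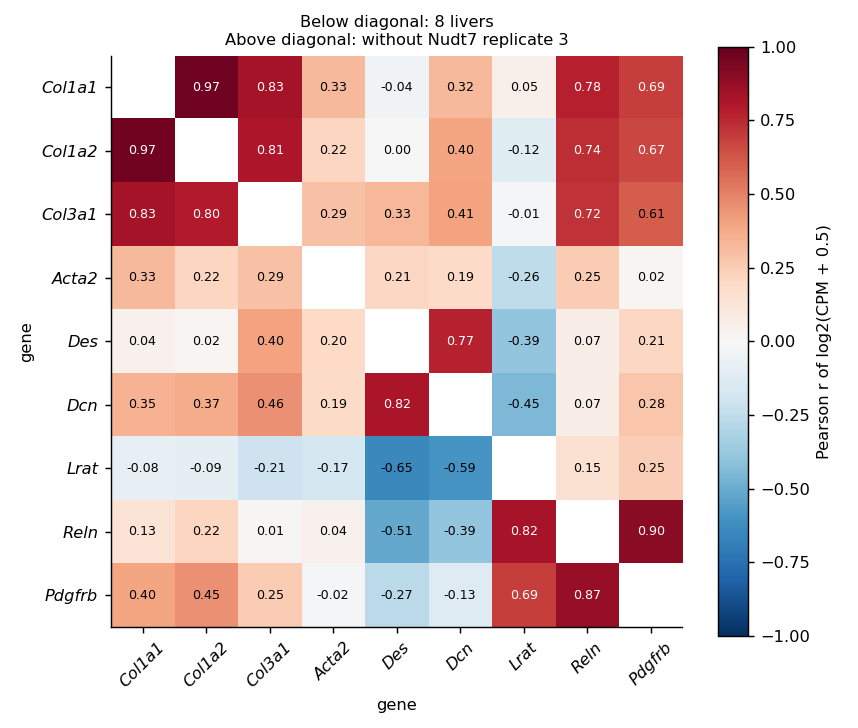
Pearson r of log2(CPM + 0.5) for the 36 pairs of genes (colour scale from −1 to 1), over all 8 livers below the diagonal and over 7 livers without Nudt7 replicate 3 above it. The collagen pairs are at 0.80 to 0.97 below the diagonal, and the pair Lrat and Reln is at 0.82 below it and 0.15 above it.

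Over the 36 pairs, 25 had a positive r and the median was 0.206, where all pairs of the 13678 tested genes had 49.9% positive and a median of −0.0010. Without Nudt7 replicate 3, 30 pairs were positive with a median of 0.265. Reln stood at r of 0.723 to 0.778 with the 3 collagen genes in those 7 livers, against 0.00872 to 0.217 over all 8. With the trend in transcript length removed, the r of Reln with these genes over all 8 livers was 0.051 to 0.126. That removal took Reln at 5848 bases and Col3a1 at 2967, less than their main coding transcripts of 11699 and 5564 bases. It may therefore not have removed the whole trend for these 2 genes. The genes share libraries and depth, and the pairs share genes, so the count describes these livers only. Acta2 had an r of 0.328 with Col1a1, 0.217 with Col1a2 and 0.295 with Col3a1 over 8 livers, and with the group means removed these were 0.5004, 0.381 and 0.688. Without GFP replicate 1 they were 0.191, 0.011 and 0.097.

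The 9 genes differed in how much they varied between livers of the same group. Dcn had a within-group coefficient of variation of 9.26%, where counting error alone would give 2.32%. For Reln it was 23.8% against 3.66% from counting, and for Col1a1 39.0% against 12.8%. The biological coefficient of variation fitted by edgeR leaves counting error out and is drawn toward the values of other genes. It can therefore exceed the within-group value of a gene, as it did for Dcn. It was 14.4% for Dcn, 18.7% for Lrat, 22.5% for Reln and 32.3% for Col1a1, with a median of 17.97% over all genes tested.

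Levels can be set against each other only in TPM. Counting the protein-coding transcripts of at least 1500 bases, Dcn stood at 119 ± 10.4 TPM, Reln at 6.02 ± 1.86, Lrat at 2.63 ± 0.599, Col1a2 at 2.59 ± 0.762, Pdgfrb at 1.99 ± 0.527, Des at 1.49 ± 0.222, Col3a1 at 1.25 ± 0.348, Col1a1 at 1.15 ± 0.482 and Acta2 at 0.906 ± 0.454 TPM (SD, n = 8 livers). Dcn lay above Reln and Reln above Lrat in 8 of 8 livers. Lrat and Col1a2 were not separated, with Lrat above in 4 of 8 livers, nor were Col3a1 and Col1a1 (5 of 8) or Col1a1 and Acta2 (5 of 8). Col1a2 lay above Pdgfrb, Pdgfrb above Des and Des above Col3a1 in 7 of 8 livers each.

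Sums of TPM over every transcript of a gene gave another picture for Reln, Col3a1 and Col1a2, because short transcripts with few reads carry much TPM. Transcripts other than the long coding ones held 7.01% of the Col3a1 reads but 53.3% of its TPM, 9.04% of the Reln reads but 55.2% of its TPM, and 4.39% of the Col1a2 reads but 32.5% of its TPM. For Col3a1, a retained-intron transcript of 431 bases held 31.1% of the TPM of the gene from 20.9 estimated reads in the 8 libraries together, and one of Col1a1, of 493 bases, held 13.0% from 3.31 reads. Summed over all transcripts, Col1a2 therefore stood at 7.11, 3.56, 2.18 and 4.78 TPM in Nudt7 livers 1 to 4 and at 1.88, 3.71, 5.36 and 2.12 TPM in GFP livers 1 to 4. For its coding transcript of 5348 bases alone the values were 2.16, 3.34, 1.95 and 2.54 TPM in Nudt7 livers and 1.62, 3.48, 3.54 and 2.08 TPM in GFP livers. The highest liver was Nudt7 replicate 1 by the first measure and GFP replicate 3 by the second. In the read-based fit, counting only the long coding transcripts gave log2 fold changes of −0.20 for Reln, 0.0044 for Des, 0.024 for Col1a1, 0.029 for Col1a2 and 0.27 for Col3a1, an alternative chosen after seeing the data. With offsets from the effective length over all transcripts, the log2 fold change was 0.53 for Col1a2 (adjusted p = 0.719) and 0.40 for Col3a1 (adjusted p = 0.7996).

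**Figure D5:**
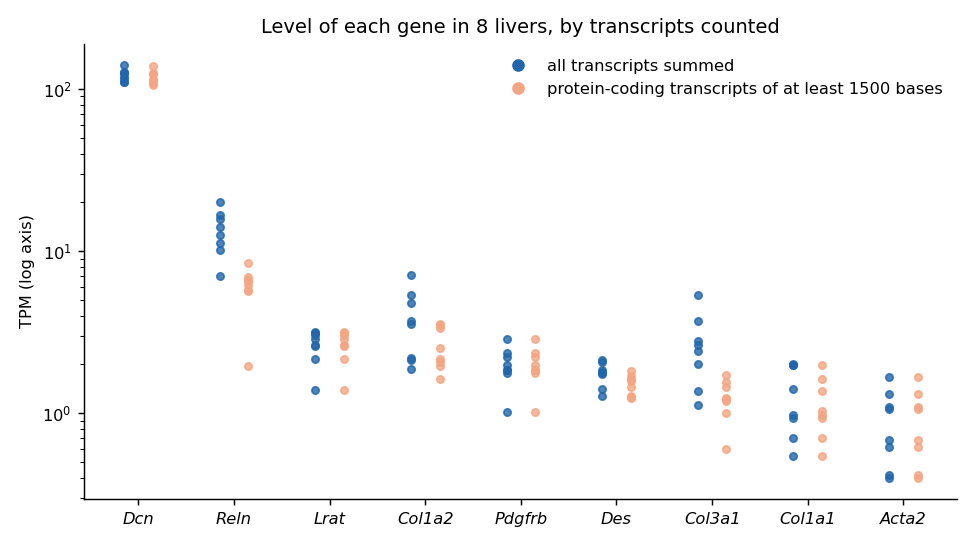
TPM of each gene (logarithmic vertical axis) in the 8 livers, 1 point a liver, summed over all transcripts in blue and over protein-coding transcripts of at least 1500 bases in orange, with genes ordered by the mean over the coding transcripts. The measures differ for Reln, Col1a2 and Col3a1; Dcn is at 119 TPM and the other 8 genes average between 0.906 and 6.02 TPM by the coding transcripts.

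Reln had 15 transcripts in the files. A processed transcript of 891 bases took 36.8% ± 11.2 of the TPM of the gene in Nudt7 livers and 40.6% ± 14.1 in GFP livers, and its coding transcript of 11699 bases took 35.8% ± 9.92 and 39.9% ± 11.4 in Nudt7 and GFP livers (SD, n = 4 each). The processed transcript held 125 reads in GFP replicate 4, the deepest library, against 16.3 to 48.2 in Nudt7 livers and 18.0 to 34.4 in the other GFP livers. In TPM, which allows for depth, it was at 12.2 in GFP replicate 4. The range was 2.88 to 7.19 TPM in Nudt7 livers and 2.89 to 6.76 TPM in the other GFP livers. Dcn was divided between a pair of coding transcripts of 1758 bases, the major one at 82.6% ± 4.70 in Nudt7 livers and 80.4% ± 1.17 in GFP livers, and the minor one at 15.1% ± 5.02 in Nudt7 livers and 17.75% ± 1.05 in GFP livers. The share of each Reln and Dcn transcript named here differed between groups by less than the larger of its SDs.

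The genes whose level over the 8 livers was most like that of the collagen genes were Postn, Tspan5, Tmc8, Scd2 and Fbln5. Likeness was the Pearson r with the mean of the standardised Col1a1, Col1a2 and Col3a1 levels, over 12207 candidate genes, and is given as a description. It was 0.966 for Postn, which encodes the matrix protein periostin, and 0.923 for the tetraspanin gene Tspan5. It was 0.921 for Tmc8, 0.918 for Scd2, a stearoyl-CoA desaturase gene, and 0.916 for Fbln5, which encodes the elastic fibre protein fibulin-5. Levels were low for Tspan5, at 1.15 ± 0.073 and 1.14 ± 0.575 CPM in Nudt7 and GFP livers (SD, n = 4 each), with 0.485 CPM in GFP replicate 1. Tmc8 was at 2.49 ± 0.389 and 2.15 ± 0.699 CPM in Nudt7 and GFP livers. Postn was at 5.47, 6.45, 6.92 and 5.80 CPM in Nudt7 livers 1 to 4 and at 3.95, 7.38, 8.197 and 5.04 CPM in GFP livers 1 to 4, lowest in GFP replicates 1 and 4 like the collagens. Its log2 fold change was 0.013 (SE 0.23, adjusted p = 0.990). Portal fibroblast and mesothelial markers (16 listed) summed to 32.3, 30.5, 30.9 and 35.3 CPM in Nudt7 livers 1 to 4 and to 27.2, 38.0, 31.1 and 26.8 CPM in GFP livers 1 to 4, also lowest in GFP replicates 1 and 4. The same livers were lowest, at 45 and 39.99 CPM, in the sum of cholangiocyte markers, at 14.4 and 14.0 CPM in that of lymphocyte and neutrophil markers, and at 204.9 and 196.3 CPM in that of matrix proteases and their inhibitors. The sum of other stellate cell markers was lowest in GFP replicate 1, at 575.9 CPM. It was 612 CPM in GFP replicate 4, above Nudt7 replicate 3 at 603.8 CPM and GFP replicate 2 at 606.4 CPM. Other lists went the other way. The sum of contractile and smooth muscle genes was highest in GFP replicate 1, at 689.3 CPM. In GFP replicate 4 the sums of sinusoidal endothelial markers, at 1018 CPM, and of TGF beta and PDGF signalling genes, at 513.7 CPM, were the highest of the 8 livers. The part of these lists in the collagen levels was not tested.

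Related genes were read from 9 lists with 200 distinct genes. Of the 170 tested and outside the 9, 0 passed the edgeR test over all genes, and 0 passed in DESeq2 or in limma-voom, whether or not the samples were weighted. An unadjusted p under 0.05 was found for 15 (8.82%, against 8.28% of all genes), groups did not overlap for 9 (5.29%, against 5.75%), 79 were negative and their median log2 difference was 0.020. These shares lay near those of all genes. In what follows the value after a gene name is its log2 fold change unless a unit is given, and no gene named passed.

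Other stellate cell markers numbered 26 tested of 27, with 14 positive and 12 negative fold changes and a median of 0.028. They included Ngfr, a neurotrophin receptor gene, at 0.46 (SE 0.27, adjusted p = 0.668), while Vipr1 was at −0.18 (SE 0.11, adjusted p = 0.681) and Adamtsl2 at −0.27 (SE 0.18, adjusted p = 0.693). Summed, they stood at 603.8 to 708.7 CPM in Nudt7 livers, against 575.9 to 685.8 CPM in GFP livers. Of 25 genes of retinoid storage and metabolism, 21 were tested, 11 were positive and the median was 0.038. Rara, a retinoic acid receptor gene, averaged 15.7 ± 1.55 CPM in Nudt7 livers, against 11.9 ± 1.38 CPM in the GFP group, with no overlap (SD over 4 livers a group; 0.399 on the log2 scale with SE 0.14, adjusted p = 0.454). Rdh16, a retinol dehydrogenase gene, averaged 178 ± 5.57 and 141 ± 14.5 CPM in Nudt7 and GFP livers, also with no overlap (0.33, SE 0.12, adjusted p = 0.471). Aldh1a1, a retinaldehyde dehydrogenase gene, was at 0.67 (SE 0.24, adjusted p = 0.471) and Rbp4, the plasma retinol carrier gene, at −0.097 (SE 0.199, adjusted p = 0.8998).

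Of 18 other collagen chains 15 were tested, with 8 positive and a median of 0.055. Col5a3, a type V chain gene, averaged 19.7 ± 1.498 CPM in Nudt7 livers, against 13.2 ± 4.36 CPM in the GFP group (SD, n = 4 each; 0.59, SE 0.197, adjusted p = 0.451), and Col12a1 was at 0.74 (SE 0.32, adjusted p = 0.586) and Col13a1 at −0.31 (SE 0.13, adjusted p = 0.581). The basement membrane chain gene Col4a1 was at −0.063 (SE 0.17, adjusted p = 0.9297), the type V chain gene Col5a2 at −0.055 (SE 0.23, adjusted p = 0.959) and Col6a1 at 0.12 (SE 0.22, adjusted p = 0.882). All 25 genes of collagen processing and cross-linking were tested, with 14 positive and a median of 0.050. Among them Adamts14, a procollagen peptidase gene, was at −0.65 (SE 0.26, adjusted p = 0.538, no overlap), the lysyl oxidase genes Loxl3 and Lox at 0.61 (SE 0.24, adjusted p = 0.551) and −0.31 (SE 0.32, adjusted p = 0.792), and the prolyl hydroxylase gene P3h3 at −0.57 (SE 0.27, adjusted p = 0.5995). Proteoglycans and matrix glycoproteins had 25 tested of 32, 12 positive and a median of −0.0011. Lum, the lumican gene, was at 0.35 (SE 0.23, adjusted p = 0.699) and Thbs1, the thrombospondin gene, at −0.30 (SE 0.23, adjusted p = 0.714). Fn1, the fibronectin gene, averaged 1188 ± 303 CPM in Nudt7 livers, against 1580 ± 178 CPM in the GFP group (−0.41, SE 0.19, adjusted p = 0.5995), and the biglycan gene Bgn 80.8 ± 6.88 and 80.9 ± 10.1 CPM in Nudt7 and GFP livers (SD, n = 4 each).

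Matrix proteases and their inhibitors had 16 tested of 23, 10 positive and a median of 0.014. Mmp15, a membrane-bound metalloproteinase gene, was at 0.61 (SE 0.22, adjusted p = 0.471), Mmp19 at 0.35 (SE 0.14, adjusted p = 0.528) and the gelatinase gene Mmp2 at 0.12 (SE 0.32, adjusted p = 0.926). The inhibitor gene Timp3 was at −0.18 (SE 0.12, adjusted p = 0.699). Timp1, a protease inhibitor gene, had too few reads to be tested, at 0.065 to 0.23 CPM in Nudt7 livers, against 0 to 0.167 CPM in GFP livers. Of 27 genes of TGF beta and PDGF signalling 26 were tested, 13 in each direction, with a median of 0.0084. Tgfb1, the gene of the cytokine that most strongly induces collagen in stellate cells, averaged 10.1 ± 1.46 CPM in Nudt7 livers, against 10.04 ± 1.82 CPM in the GFP group (SD, n = 4 each; 0.018, SE 0.17, adjusted p = 0.983). Itgb6 was at −0.84 (SE 0.34, adjusted p = 0.539) and Smad4, the common SMAD gene, at −0.24 (SE 0.11, adjusted p = 0.5995), both with no overlap between groups, and the ligand gene Pdgfa at 0.51 (SE 0.23, adjusted p = 0.590). Contractile and smooth muscle genes had 14 tested of 19, 7 in each direction and a median of 0.035. Tpm2, a tropomyosin gene, was at 1.20 (SE 0.37, adjusted p = 0.391), Tagln, the transgelin gene, at −0.041 (SE 0.23, adjusted p = 0.970) and Myh11, the smooth muscle myosin gene, at −0.28 (SE 0.45, adjusted p = 0.873). Synm was at −0.60 (SE 0.33, adjusted p = 0.664) and Tpm1 at 0.21 (SE 0.13, adjusted p = 0.670). Tpm2, with overlapping groups, and Acta2 thus lay on opposite sides of 0. Reelin receptors and adaptors had 4 tested of 6, 3 positive, with Dab2 at 0.12 (SE 0.14, adjusted p = 0.808) and Itga3 at 0.11 (SE 0.16, adjusted p = 0.855).

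Markers of other liver cells, listed whole, gave summed levels that overlapped between groups except for cholangiocyte markers. Those (12 listed, 7 tested, 6 positive) summed to 55.3 to 66.8 CPM in Nudt7 livers, against 39.99 to 51.9 CPM in GFP livers, and edgeR called 0. DESeq2, which called 1.18% of all genes, and weighted limma-voom, which called 57 genes higher and 46 lower, called Spp1 of this list (log2 fold change 1.13, SE 0.22, edgeR adjusted p = 0.105). Of the 16 hepatocyte markers both called Tat, the tyrosine aminotransferase gene (log2 fold change −0.85, SE 0.21, edgeR adjusted p = 0.225, no overlap). An unadjusted p under 0.05 in edgeR was found for 4 of these 16, where 8.28% of all genes had one. The count was 2 of 7 tested cholangiocyte markers, 2 of 16 sinusoidal endothelial markers and 0 of 15 Kupffer cell markers. It was 0 of 5 tested lymphocyte and neutrophil markers and 0 of 6 tested red blood cell transcripts. Sinusoidal endothelial markers (16 listed) summed to 867 to 972 CPM in Nudt7 livers, against 957 to 1018 CPM in GFP livers, and Kupffer cell markers (15 listed) to 320 to 561 and 368 to 498 CPM. Lymphocyte and neutrophil markers (15 listed, 5 tested) summed to 15.5 to 24.8 CPM in Nudt7 livers, against 14.0 to 20.7 CPM in GFP livers. Red blood cell transcripts (8 listed) reached 1816 CPM in Nudt7 replicate 3, against 304 to 643 CPM in the other Nudt7 livers and 412 to 601 CPM in GFP livers. No listed marker of these 5 cell types was at 0 in all 8 livers. Their part in the levels of the 9 genes was not tested.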

How the data were processed

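RNA of 8 livers was sequenced from stranded mRNA libraries, per the labels' protocols. The deposited values are the authors' Salmon estimated counts and TPM per transcript, per the file headers; the submitters' processing notes name FastQC, Salmon, DESeq2 and GRCm38, without their versions. Of 109282 transcripts, 107987 (98.8%) had a gene name in GENCODE M21; their estimated counts were summed per gene and rounded, and the 1295 others were left out. Genes with enough reads (filterByExpr) were tested with edgeR 4.0.16 (TMM scaling, robust quasi-likelihood fit, two-sided, Benjamini-Hochberg over 13678 genes, threshold 0.05) in R 4.3.3, with DESeq2 1.42.0 and limma 3.58.1 as alternatives. Correlations used log2(CPM + 0.5), exact permutation p-values and scipy 1.17.1. The scripts were tested on simulated data. Replicate numbers follow the order of the samples. Depth was 11187806 to 23640734 estimated reads.

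The 9 genes and the lists were chosen with earlier results of these data known. Named were the 9 genes, up to 3 genes with the smallest adjusted p of each list, a written set given whatever its result (a member of it is not reported here), and the 5 genes most like the collagens. Alternatives were other scalings, tests, filters, a correction for transcript length, TPM, and each liver left out in turn.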

Additional observations from a re-analysis of the deposited data

Results flagged for a closer look

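Reln in Nudt7 replicate 3, at 30.06 CPM, stood apart from the other Nudt7 livers, at 61.9 to 67.2 CPM: its gap to the nearest liver was 0.858 of the range of the group, above Dixon's critical value for 4 samples. Of 34 group values screened it was the only one past that value. Chance gives about 1 past it in every 20 screened, so 1 of 34 is no more than chance gives. The length trend of this library lay 0.44 log2 units below the mean for Reln, its Nudt7 level was 3569 CPM against 1301 to 1599 CPM in the other Nudt7 livers, and the part of either in the low level was not tested.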

How the results depend on the processing

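None of the 9 genes was called under any setting run. Over all genes, 6 were called higher and 10 lower in Nudt7 livers by edgeR; DESeq2 called 89 and 64, limma-voom with sample weights 57 and 46, and limma on log2(TPM + 0.1) and on log2(TPM + 1) 3 and 5 each. Limma-voom called 4 lower, effective-length offsets 6 lower, a fit without robust estimation 6 lower, no low-count filter 15 higher and removal of the length trend 23 higher; the cause was not tested. Col1a2, at 0.071 in edgeR, was at 0.53 with effective-length offsets, 0.42 on log2(TPM + 0.1) and 0.34 on log2(TPM + 1), and Col3a1 at 0.40 with effective-length offsets. Signs of small fold changes turned: with library totals only, Des was −0.017 and Col1a1 −0.039; with sample weights Lrat was 0.032, Reln 0.013, Des −0.032, Col1a1 −0.011 and Pdgfrb 0.032; with the length trend removed Lrat was 0.0073 and Pdgfrb 0.016; with effective-length offsets Dcn was 0.0045; on log2(TPM + 0.1) and log2(TPM + 1) Des was −0.036 and −0.022. Acta2 and Col3a1 kept their sign in every alternative run, and the adjusted p of Acta2 ranged from 0.486 to 0.875; its unadjusted p was under 0.05 on log2(TPM + 1) (0.0490) and without Nudt7 replicate 1 (0.0491) or GFP replicate 1 (0.0380). The median r of the 36 pairs was 0.206, against 0.331 on log2(TPM + 0.1), 0.285 with group means removed and 0.321 as Spearman's rho.

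Leaving out each liver in turn, 1 to 8 genes were called higher and 1 to 12 lower, 0 to 0 of the 9 were called, the median r was 0.077 to 0.265 and 22 to 30 pairs were positive. Fold changes ran from −0.97 to −0.52 for Acta2, −0.19 to 0.32 for Col1a1, −0.090 to 0.24 for Col1a2, 0.068 to 0.45 for Col3a1, −0.063 to 0.047 for Dcn, −0.079 to 0.21 for Des, −0.18 to 0.083 for Lrat, −0.16 to 0.069 for Pdgfrb and −0.26 to 0.061 for Reln. No paired analysis was possible because the animal numbers in the labels differ between the groups and the replicate numbers follow sample order only. Acta2 had 6 to 34 reads per library, and its counting error of 28.0% stood beside a fitted biological variation of 30.6%.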
